A study of Mus musculus with 2 samples.

Results

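The genes of the cytosolic translation factors were compared between cultured neutrophils of wild-type mice and of mice lacking miR-223, a microRNA abundant in granulocytes. Members were the genes whose symbol begins with Eif or Eef, together with Etf1, Gspt1, Abce1 and Pelo. Probe sets had to be named for 1 gene only, and Eif2s3x, Eif2s3y, Eif2ak2 and the Argonaute genes once named Eif2c were left out. The rule used no measured difference. It gave 60 genes of 18193 measured, read by 164 probe sets, and 59 of the 60 passed the filter on low values described below, against 11006 of all genes. Some well-known factors, among them Eef1g and Eif3j1, had only probe sets that the annotation shares with another gene, and are not analysed here.

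Both cultures came from bone marrow of male C57BL/6 mice, 1 from wild-type animals and 1 from animals carrying the miR-223 knockout. Progenitors were grown for 6 days in G-CSF, which directs granulocyte formation, and SCF, which binds Kit. Cycloheximide, an inhibitor of the elongating ribosome, was given to both at 100 ug/ml for the final 8 min, so every level below was read in cells whose translation had just been blocked. Total RNA of each culture was hybridised to 1 array, and the number of animals behind each culture is not stated in the labels. With 1 array per genotype there is no replicate check behind any difference and no test could be run. Differences give the knockout value minus the wild-type value in units of log2(intensity + 16), and all describe these 2 cultures. A gene was read by its probe set with the highest mean, and counted as expressed when that mean reached the median of all probe sets, an intensity of 33.9. The yardstick used for small differences was the SD between expressed probe sets of one gene, 0.144 over 5017 genes, which is a spread within these arrays and not a replicate error.

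The deleted microRNA silences messengers that pair with its seed, bases 2 to 8 of the mature strand, shown here in capitals as RefSeq lists it on chromosome X of GRCm38.p6 (chrX:96242884-96242905, plus strand).
mmu-miR-223-3p: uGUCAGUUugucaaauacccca
A messenger with a full seed match holds the letters AACUGAC. Messenger sequences were not used here, so the members were not searched for it. No probe set was named for Mir223 itself (0 of those annotated), so the deletion was not checked on the arrays.

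Both arrays had the profile of granulocytes. All 15 measured genes of an 18-gene neutrophil list were expressed, and 14 of the 15 were higher in the knockout, with a median of 0.15 and summed intensities of 194041 on the wild-type and 205820 on the knockout array. Markers of some other cells differed too. Summed intensities cover every measured gene of a list, expressed or not. Each of the 9 expressed markers of mast cells and basophils was lower in the knockout culture (summed intensities of 6199 and 4185). So were 5 of 6 megakaryocyte and platelet markers (1960.2 and 1258), but these ran from -1.06 to 1.34, the 1 higher gene having the largest difference in size. Of 9 expressed monocyte and macrophage markers 7 were higher (6657 and 7758). Of 4 expressed eosinophil markers 3 were lower, and of 3 B cell markers 2 were higher. Of 4 T and NK cell markers 3 were lower, although their list had the higher summed intensity in the knockout (1103 and 1387). The 2 erythroid markers had a median near 0 (0.00096). In such bulk RNA, fewer cells of a type and less RNA per cell cannot be told apart, and the part these cells had in the values below was not tested. Probe sets of the poly-A spike-in RNAs, added before labelling, read lower on the knockout array, 24 of 24 with a median of -0.17. Those of the hybridization controls, added after labelling, read lower in 17 of 18 with a median of -0.11. Several of these probe sets read the same RNA, so the counts are not of separate RNAs. The columns were used as deposited. Scaling to the poly-A spike-ins would raise every difference by the same 0.17 and put 53 of the 59 expressed members above 0. Each statement of higher or lower below therefore holds on the deposited scale.

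Translation begins when initiator tRNA, carried by eIF2 and GTP, joins the small ribosomal subunit with the help of eIF1, eIF1A and the large eIF3 complex. The eIF4 proteins bring in the messenger by its cap, and eIF5 and eIF5B complete the start. Elongation by eEF1A and eEF2 and release by eRF1 and eRF3 follow. The chain is regulated at the cap, where 4E-BP proteins bind eIF4E unless TOR signalling releases them. It is also regulated at eIF2, whose phosphorylation by stress kinases holds back the exchange factor eIF2B.

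The translation factor genes had nearly the same signals on both arrays. The ratio of knockout to wild-type intensity ran from 0.836 to 1.19 over the 59 expressed members. No member was higher by 0.5 or more (1.41-fold), a size reached by 1.13% of all expressed genes, and none was lower by as much, against 0.591%. With the added 16, none reached 0.25 in either direction, whereas 8.07% of expressed genes were higher and 4.8% lower by that size. This count of 0 was at the edge of the threshold. Eef1akmt1, whose difference rounds to -0.25 but falls just short of it, passed 0.25 with a pseudocount of 1 (-0.26). It also did so under quantile normalization (-0.28) and under loess (-0.27). Eif2ak4 passed 0.25 without probe sets of shared suffix classes (-0.29), on a dim probe set (44.2 and 33.2). Under spike-in scaling 11 members passed it. All 59 thus lay within 0.25, compared with 87.1% of expressed genes. Among genes at or above the 75th percentile of intensity over all probe sets, the share within 0.25 was 88.7%, and all 53 members of that class lay inside it. Many members are brighter still, and a match on intensity was not made. The SD of the members' differences was 0.11 and that of all expressed genes 0.18. Of the members, 46 of 59 (78.0%) lay within the spread between probe sets, as did 65.7% of expressed genes.

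**Figure D1:**
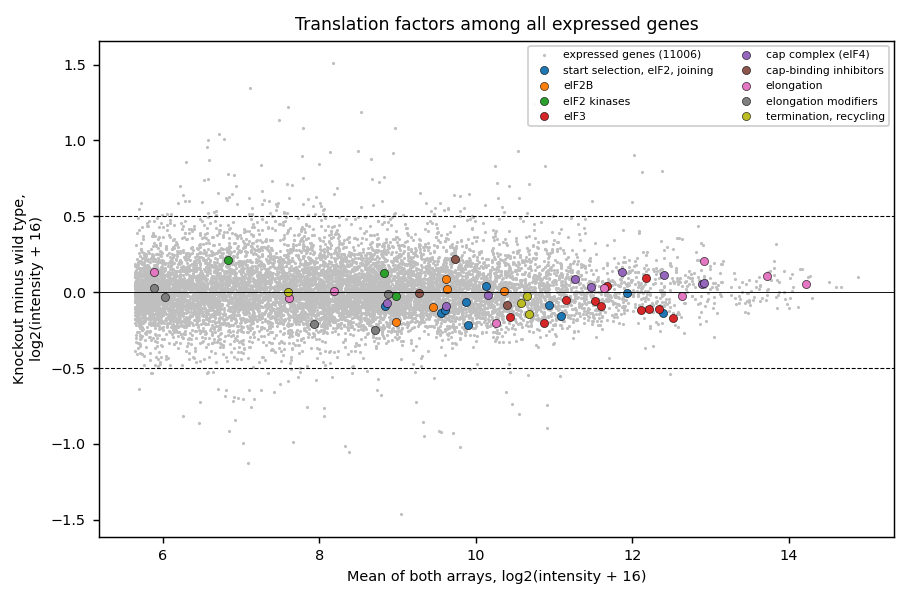
Difference between knockout and wild type (vertical axis, log2(intensity + 16)) against the mean of both arrays on the same scale (horizontal axis), 1 point per expressed gene, grey for all 11006 genes and coloured by role for the 59 translation factors. Dashed lines mark 0.5 in either direction, and every coloured point lies between -0.25 and 0.22.

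Within this narrow range the lower side held more members. There were 37 members lower and 22 higher, so 62.7% were lower, whereas among all expressed genes 50.1% were lower and 49.7% higher. The median was -0.028, against -0.00037 for all expressed genes, a gap far smaller than the spread between probe sets. Signs of such small differences were often not shared between probe sets. Of 33 members with at least 2 expressed probe sets, 19 had probe sets of both signs (57.6%), as had 47.5% of all such genes. In the remaining 14 all probe sets stood on one side, 9 lower and 5 higher. The other 26 members rested on a single expressed probe set.

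**Figure D2:**
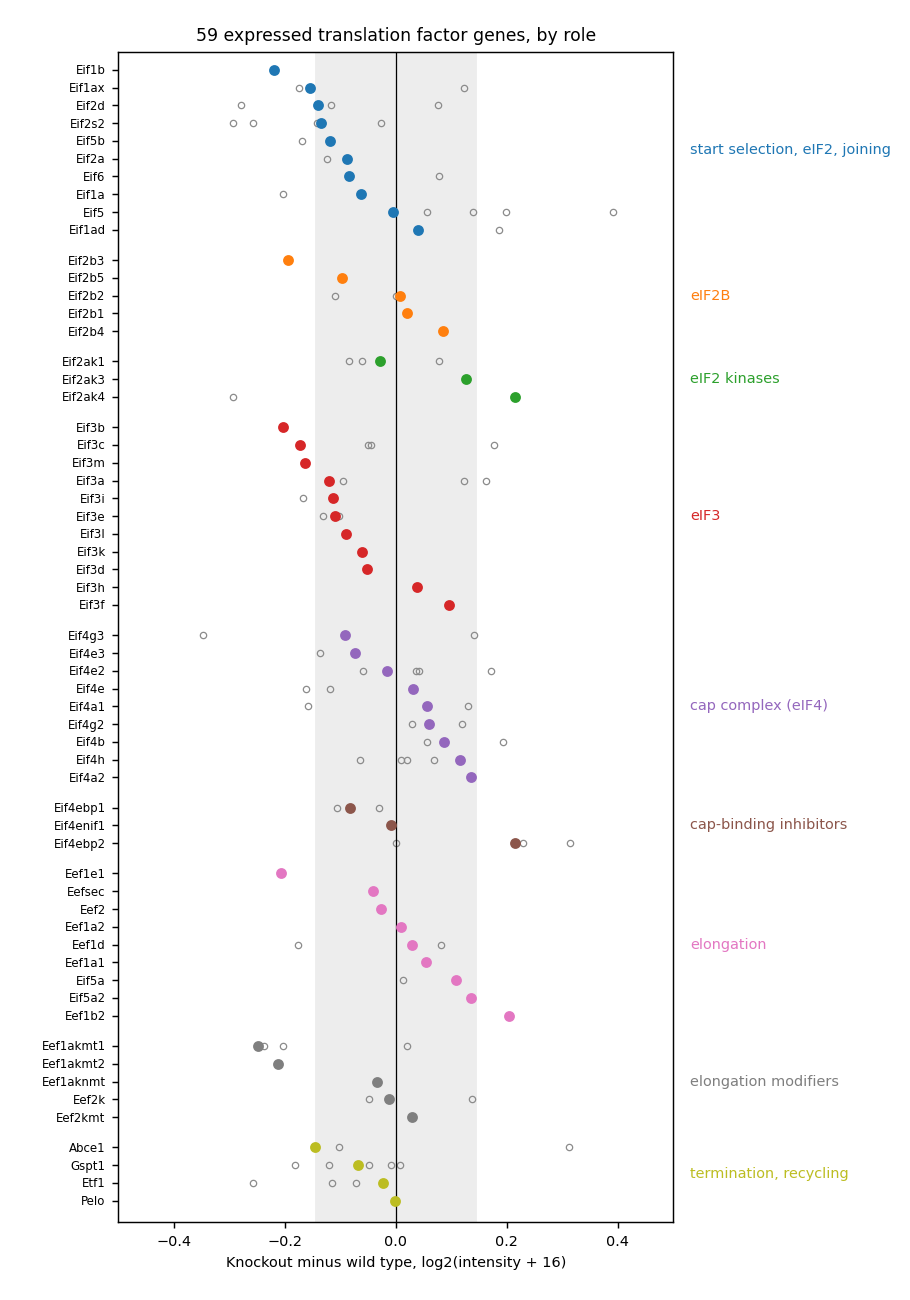
Difference between knockout and wild type (log2(intensity + 16)) of each expressed translation factor gene, grouped by role. Filled points are the probe set that stands for the gene, open points its other expressed probe sets, and the grey band is 0.144 to either side of 0; on the deposited scale filled points of the eIF3 and start-selection groups lie mostly left of 0 and those of the cap complex mostly right.

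Promoter sequences were examined for letters that the members share. RefSeq windows (GRCm38.p6) were found for 47 of the 59 expressed members, 62 windows in all, and the 250 bases before each listed start were searched on both strands. CACGTG, the E-box that Myc and USF proteins are known to bind, stood in 13 of 62 member windows (21.0%) and in 8.37% of 11417 windows of expressed genes. The 11 members holding it had a median difference of 0.031, with 6 higher, and ranged from -0.22 to 0.14. The members without it had a median of -0.035. Both medians lie well inside the spread between probe sets. The E-box stretches below, in capitals within 30 bases, are from members where the letters lie ahead of every listed start of the gene, and they show how the hexamer recurs in factors of different steps and of either sign.
Eef2 (chr10:81176576-81176605, plus strand): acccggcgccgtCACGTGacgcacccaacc
Eif1b (chr9:120492570-120492599, plus strand): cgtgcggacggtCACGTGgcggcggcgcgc
Eif3f (chr7:108934335-108934364, plus strand): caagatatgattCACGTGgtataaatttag
Eif3k (chr7:28981915-28981944, minus strand): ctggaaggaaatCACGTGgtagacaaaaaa
Eif4a1 (chr11:69672595-69672624, minus strand): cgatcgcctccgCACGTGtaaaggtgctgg
Eif4h (chr5:134639488-134639517, minus strand): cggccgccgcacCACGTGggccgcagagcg
Eif5a2 (chr3:28781148-28781177, plus strand): cagggcgagcttCACGTGacggggcgggac
The hexamer began 43 bases before the listed start in Eef2, 24 in Eif1b, 68 in Eif3f, 44 in Eif3k, 189 in Eif4a1, 96 in Eif4h and 117 in Eif5a2. Eif5a2 held a second hexamer 142 bases before its start, not printed here. Eef1aknmt (-0.033) and Eef2k (-0.012) also held the hexamer ahead of every listed start and are not printed. Eif1b was the lowest of the 7 printed genes (-0.22) and Eif5a2 the highest (0.14). Genes with the same hexamer thus stood on both sides of 0.

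The other motifs searched gave smaller departures or rested on few windows. CCGGAAG, an ETS core, was in 19.4% of member windows and 13.8% of all, and TGACGT, a cAMP response element core, in 19.4% and 9.81%. GGGCGG, the GC box, stood in 64.5% and 56.9%. CCAAT was in 25.8% of member windows and 35.1% of all. Its extended forms ATTGGC and GATTGG, which overlap it, were in 14.5% each, against 17.7% and 18.8% of all. TATAAA was found in 3 member windows (4.84%, against 6.57% of all) and TTTCGCGC in 2 (3.23%, against 0.543%). AAGATGGC and the NRF1 palindrome were in 1 each (1.61%, against 2.08% and 1.62% of all). The palindrome bound by Kaiso was in 0, against 0.815% of all. A match is a description of letters and not of binding.

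The factors of start selection, initiator tRNA delivery and subunit joining were mostly slightly lower, 9 of 10 with a median of -0.10. Eif1b, encoding a protein closely related to the start-codon factor eIF1, had intensities of 1010.5 on the wild-type and 866 on the knockout array (-0.22). It was the lowest of these genes and rested on 1 probe set. Eif2s2, the beta subunit of eIF2, read 5599 and 5100.0 (-0.13). Its 6 expressed probe sets were all lower, between -0.29 and -0.027, the largest number in agreement for any member. Eif5b, the GTPase that joins the subunits, read 796 and 731 (-0.12) with both expressed probe sets lower, but averaging all of its probe sets, expressed or not, gave 0.097.

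Other genes of this step were less even. Eif1ax, an eIF1A gene on the X chromosome, read 2288 and 2053 (-0.16), but its probe sets ran from -0.17 to 0.12. Eif2d, an alternative tRNA delivery factor, read 771 and 698 (-0.14) with probe sets from -0.28 to 0.076. Eif5, which makes eIF2 hydrolyse its GTP, stood at -0.0044 on the brightest of 5 probe sets while the others reached 0.39, so the rule of the brightest probe set gave its lowest value. Eif6, which keeps large subunits from joining early, stood at -0.085, Eif2a at -0.088 and Eif1a at -0.063. Eif1ad was the 1 higher gene (0.040). The group's lower position depended on the choice of probe set. Without probe sets of shared suffix classes, which can read sequence common to several transcripts, 5 of 9 genes were higher and the median was 0.040. Some genes were then read by dimmer probe sets, among them Eif2d at 40.5 and 43.5 and Eif6 at 130 and 138. With the mean of probe sets 7 of 10 genes were lower and the median was -0.070. At the level of probe sets, 20 of 29 expressed ones were lower.

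The exchange factor eIF2B, which reloads eIF2 with GTP, had subunit genes on both sides of 0. Eif2b3 read 524 and 456 (-0.19) and Eif2b5, the catalytic subunit, 709 and 661 (-0.098). Eif2b4 read 745 and 790.5 (0.084), while Eif2b1 (0.020) and Eif2b2 (0.0077) were almost level. The median of the 5 was 0.0077, and it turned to -0.0088 under quantile normalization, -0.020 with the mean of probe sets and -0.098 over 3 genes without shared suffix classes.

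The eIF2 kinases, which couple stress to initiation, had the highest median of any role, 0.13, but over 3 genes. Eif2ak4, the amino acid sensor Gcn2, read 90.1 and 107 (0.21). Its second probe set, near the filter at 44.2 and 33.2, gave -0.29. The sign of this gene was thus not shared between its 2 probe sets. Eif2ak3, the endoplasmic reticulum kinase Perk, read 417 and 456 (0.13) on 1 expressed probe set. Eif2ak1, the heme-regulated kinase, read 492 and 483 (-0.028), within the spread. With the mean of probe sets the median of the 3 was -0.030, and without shared suffix classes -0.028.

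The eIF3 complex, the scaffold that holds the small subunit ready, stood lower as a group. Of 11 subunit genes 9 were lower, with a median of -0.11 and a range of -0.20 to 0.096. The median and 8 of the 11 genes lay within the spread between probe sets. With the mean of probe sets 8 of 11 were lower, the median was -0.060 and Eif3a turned to 0.018. At the level of probe sets, 15 of 20 expressed ones were lower. Eif3b, a core subunit, read 1995 on the wild-type and 1731 on the knockout array (-0.20). Eif3c, another core subunit, read 6221 and 5521 (-0.17). Its 4 probe sets disagreed, from -0.17 to 0.18.

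Eif3m read 1446 and 1289 (-0.16) on 1 expressed probe set. Eif3a, the largest subunit, read 4599 and 4232 (-0.12), with 2 probe sets lower and 2 higher. Eif3i (-0.11, both probe sets lower) and Eif3e (-0.11, 3 of 3 lower, from -0.13 to -0.10) were the subunits whose probe sets agreed. Eif3l (-0.089), Eif3k (-0.061) and Eif3d (-0.051) were lower by less. The 2 subunits on the higher side were Eif3f, which read 4446 and 4754 (0.096), and Eif3h, which read 3199 and 3284 (0.038).

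Relative to the median of all expressed genes, the eIF3 median was between -0.11 and -0.068 in every setting tried. Scaling to the poly-A spike-ins moved the median of all expressed genes to 0.17 and that of eIF3 to 0.063, so the sign of the difference depended on the scale, while the gap to the median of all genes stayed at -0.11. The largest subunit difference, Eif3b, is a ratio of 0.868.

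**Figure D3:**
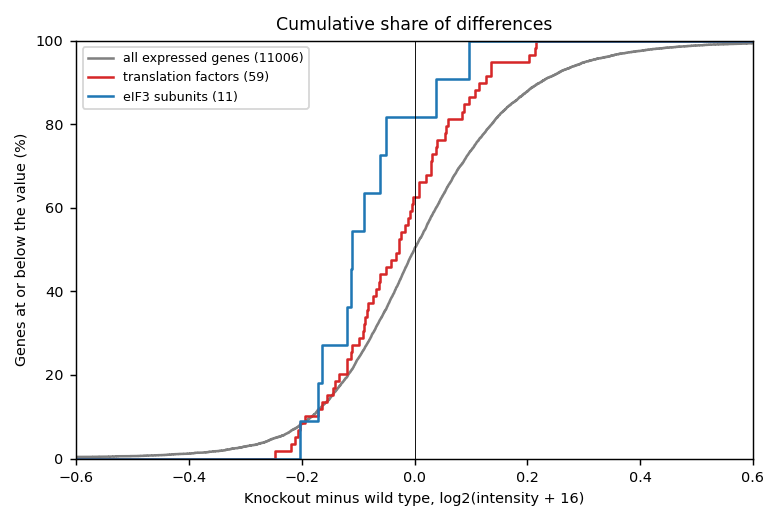
Cumulative share of genes (percent, vertical axis) at or below a given difference between knockout and wild type (log2(intensity + 16), horizontal axis) for all 11006 expressed genes, the 59 translation factors and the 11 eIF3 subunits. The curve of the factors is steeper than that of all genes, and the eIF3 curve has reached 81.8% at 0, where that of all genes stands near 50.1%.

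The cap complex stood slightly higher, 6 of 9 genes with a median of 0.056 and a range of -0.092 to 0.14. The median was 0.0089, with 5 of 9 higher, when probe sets were averaged, and 0.029 without shared suffix classes. All 9 lay within the spread between probe sets. The RNA helicase eIF4A is encoded by Eif4a1, which read 7424 and 7716 (0.056), and Eif4a2, which read 3559 and 3911 (0.14). Its partners Eif4b (2381 and 2530.3, 0.087) and Eif4h (5189 and 5620.0, 0.11) were also on the higher side. Only Eif4b of these had several probe sets, 3, that agreed, from 0.057 to 0.19. Eif4h turned to -0.065 without shared suffix classes, and the probe sets of Eif4a1 ran from -0.16 to 0.13.

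The cap-binding proteins themselves were nearly level. Eif4e read 2782 and 2842 (0.031), with its other probe sets down to -0.16. Eif4e2, a relative linked to repression, stood at -0.016 and Eif4e3 at -0.073. Of the eIF4G scaffolds, Eif4g2, which cannot bind eIF4E, read 7559 and 7878 (0.060) with 3 of 3 probe sets higher. Eif4g3 read 796 and 746 (-0.092) with probe sets from -0.35 to 0.14, the lowest single value among the members' probe sets. Eif4a3, the helicase of the exon junction complex, was the 1 member below the filter, at intensities of 23.1 and 23.9, and its level is not interpreted.

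The inhibitors of cap binding differed from one another. Eif4ebp2 stood near the top of the members with Eif2ak4, reading 777 on the wild-type and 904 on the knockout array (0.22). Its 4 expressed probe sets were all at or above 0, from 0.00021 to 0.31. Eif4ebp1 read 1370.0 and 1293 (-0.083), and its 3 probe sets were all lower, from -0.11 to -0.030. The nearest expressed probe sets of these 2 genes, at 0.00021 and -0.030, stood closer together than the spread of 0.144. A further probe set of Eif4ebp2, below the filter, gave -0.17. The difference of Eif4ebp2 lay outside the spread and that of Eif4ebp1 inside it. An average over the 5 probe sets of Eif4ebp2 gave 0.12, inside the spread, but it took in the -0.17 from below the filter. The expressed probe sets of Eif4ebp2 read 0.00021, 0.22, 0.23 and 0.31, and their average alone was not taken. Eif4enif1, the eIF4E transporter, was level at 606 and 602 (-0.0083).

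Elongation factor genes were mostly level or slightly higher, 6 of 9 with a median of 0.029, which was -0.0093 without shared suffix classes. Eef1a1, which carries aminoacyl-tRNA to the ribosome, read 18727 and 19452 (0.055), close to the upper end of the intensity range of 29262 and 31305, where proportionality of the signal was not tested. Eef1b2, a subunit of its exchange factor, read 7188 and 8282 (0.20), the highest of the group, on a single probe set of a shared suffix class. Eef1d, another exchange factor subunit, read 3148 and 3212 (0.029) with probe sets from -0.18 to 0.082. Exchange subunits thus gave unlike values.

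Eef2, the translocase, read 6404 and 6285 (-0.027). Eif5a, the hypusine-bearing factor that helps ribosomes through proline runs, read 13004 and 14011 (0.11) with both probe sets higher. Its paralogue Eif5a2 was dim, at 40.4 and 45.9 (0.14). Eef1a2, the form of muscle and neurons, read 273 and 275 (0.0085), and Eefsec, which delivers selenocysteine, 183 and 177 (-0.042). Eef1e1, a scaffold protein of the tRNA synthetase complex that bears an elongation factor name, was the lowest of the group at 1299.8 and 1125 (-0.21).

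Among the enzymes that modify elongation factors, 4 of 5 were lower, with a median of -0.033 that became 0.025 with the mean of probe sets. The lysine methyltransferases of eEF1A named Eef1akmt1 (442 and 370, -0.25) and Eef1akmt2 (246 and 210.0, -0.21) were among the 3 lowest members, with Eif1b. Of the 4 probe sets of Eef1akmt1, 3 were lower and 1 stood at 0.020. Eef2k, the kinase that halts eEF2, was level at 457 and 453 (-0.012). The remaining methyltransferases, Eef1aknmt (-0.033) and Eef2kmt (0.028), were dim, with intensities between 42.6 and 49.8.

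Termination and ribosome recycling genes were all lower by small amounts, 4 of 4 with a median of -0.046. When probe sets were averaged the median was -0.0053 with 1 of 4 higher, and under median centring 1 of 4 was higher as well. Etf1, the release factor that reads stop codons, read 1601 and 1575 (-0.024), and its 4 expressed probe sets were all lower, down to -0.26. Gspt1, the GTPase eRF3 that works with it, read 1544 and 1472 (-0.069), with 5 of 6 probe sets lower. Abce1, the ATPase that splits ribosomes, read 1707 and 1542 (-0.15). Another of its 3 probe sets gave -0.10, but 1 near the filter, at 32.4 and 44.1, gave 0.31. The mean of the 3 was 0.022. Pelo, which rescues stalled ribosomes, was level at 177.3 and 177.0 (-0.0021).

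**Figure D4:**
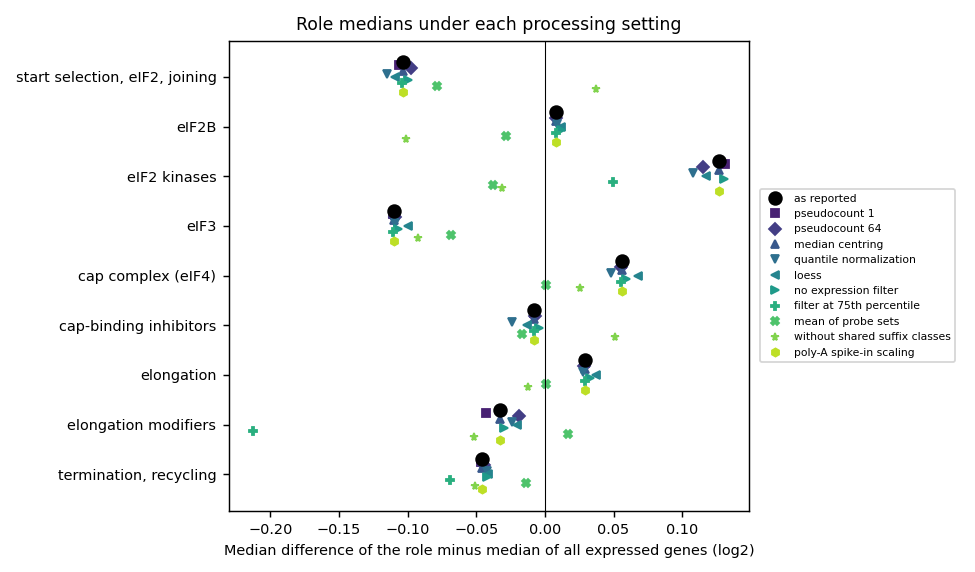
Median difference of each role minus the median of all expressed genes (log2, horizontal axis) under the reported processing (large black circles) and each alternative (other symbols). The eIF3 points all lie left of 0, between -0.11 and -0.068. The termination points also all lie left (-0.069 to -0.013) and the cap complex points all right (0.00069 to 0.068). The points of all other groups lie on both sides.

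Genes outside the family that regulate or complete translation gave a similar picture. Of 57 listed, 55 were measured and 54 expressed, with 22 higher, 32 lower and a median of -0.036. By 0.25 or more 4 of the 54 differed, and 50 lay within 0.25, as did 87.1% of all expressed genes. With the added 16 none reached 0.5, a size at which 1.13% of expressed genes were higher and 0.591% lower. In a list this short these counts do not set it apart from other genes. Pdcd4, an inhibitor of eIF4A, lay at that threshold. It read 729 and 1038 on 1 probe set, a ratio of 1.42, and only the added 16 put its difference, which rounds to 0.50, just short of it. Rps6kb2, an S6 kinase, read 172 and 216 (0.31). Of 15 expressed genes of TOR and cap signalling 10 were higher, with a median of 0.047, and Mtor itself was level (0.054).

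Genes that bind or serve the poly(A) tail and the initiating ribosome had a median of -0.064, with 7 of 11 lower. The antagonistic partners of poly(A)-binding protein stood apart, Paip2 at 0.24 and Paip1 at -0.18, each on 1 expressed probe set. The listed stress response genes were divided, 5 higher and 4 lower with a median of 0.036. Atf4 was level (0.044, probe sets from -0.15 to 0.20), and genes known to act downstream of it were divided. Chac1 (175 and 226, 0.34) and Atf5 (0.21) were on the higher side, Ddit3 was level (0.050), and Ppp1r15a (-0.080) and Trib3 (-0.14) were on the lower side.

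The list of enzymes that modify translation factors, which also holds the ribosome-rescue GTPase Hbs1l (-0.093) and the second eRF3 gene Gspt2 (-0.028), had 10 of 11 genes lower and a median of -0.081. Dhps, which carries out the first step of hypusine formation on eIF5A, had the largest lower difference in the pathway list, reading 421 and 308 (-0.43), with -0.13 on its other probe set. Dohh, the second enzyme of that route, read 572 and 535 (-0.094), and Dph7, of the diphthamide route that modifies eEF2, 208 and 182 (-0.17). Their substrates Eif5a (0.11) and Eef2 (-0.027) did not share these values. Mitochondrial translation factors had a median of -0.068, with 6 of 8 lower, led by the recycling factor Mrrf (306 and 258, -0.23) and Tufm (-0.12).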

How the data were processed

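For each array the authors deposited a linear intensity for every probe set, from biotinylated cRNA made with the Affymetrix 3' IVT Express kit, per the labels. Background correction, summarization and normalization are not stated in the labels. If the arrays were normalized together a global difference would not be seen. Of 45101 probe sets, 64 controls were set aside, and the platform annotation gave 34945 a single gene, 932 several genes and 9160 no gene. All 60 members matched RefSeq genes of GRCm38.p6, used for names and promoters; updating symbols changed no member. Intensities became log2(intensity + 16), without centring, in Python 3.11.15 (pandas 2.3.3, loess at span 0.3 with statsmodels). No test was computed. Members, roles and lists were chosen with earlier results of these data known. Every member could be named; of each pathway list the 2 largest differences were, and Mtor, Atf4, Ddit3, Ppp1r15a, Trib3, Dohh, Hbs1l and Gspt2 were added after their values were seen, as were the motifs and the E-box stretches. Alternatives were pseudocounts of 1 and 64, median centring, quantile normalization, loess, no filter, a filter at the 75th percentile, the mean of probe sets, no shared suffix classes, other sizes and, added after seeing the data, poly-A spike-in scaling. On simulated data with 11016 expressed genes, 99% of 100 genes planted 0.7 higher and 98% of 100 planted 0.7 lower were counted at 0.5, and 0 others. The simulated noise was set smaller than the spread between probe sets of these arrays. These counts therefore check the procedure and do not measure false or missed counts in the real data.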

Additional observations from a re-analysis of the deposited data

How the results depend on the processing

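The median difference of the translation factors stayed between -0.051 and -0.0084 under the alternatives chosen with the design, and that of the pathway list between -0.071 and -0.0022. Scaling to the poly-A spike-ins, added after seeing the data, gave 0.145 for the factors and 0.137 for the pathway list, with all expressed genes at 0.17, and left 6 of 59 members lower where 11.3% of all genes were. At the smaller size of 0.25, reached by 0 members as reported, the alternatives gave 0 or 1 member, and 11 under spike-in scaling. No member reached 0.5 in either direction in any setting, and the largest single difference, 0.39, was that of Eif4ebp2 under spike-in scaling. Signs were less stable: with the mean of probe sets 13 of 59 members turned, and without shared suffix classes 6 of 47. Updated symbols changed no member. Without shared suffix classes 12 members had no value, and the stricter filter dropped 6. No paired analysis was possible because each genotype had 1 array. The number of arrays limits every value.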
